A study of Mustela putorius furo with 2 samples.

Results

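ERBB3 and ERBB4 are 2 of the 28156 features counted in each library. Each was found as 1 row by its symbol, ERBB3 as ENSMPUG00000000991 and ERBB4 as ENSMPUG00000007892, and both were followed across interneuron subtypes, oligodendrocyte-lineage nuclei and the bands of the cortex. The libraries hold single-nucleus RNA from the somatosensory cortex of ferrets whose genotype label is DCX knockout, while the series' design text speaks of a knockdown. DCX encodes doublecortin, a microtubule-associated protein of migrating neurons, and its loss leaves a second band of neurons under the normal cortical layers. One library came from the upper band and 1 from the deeper band, with the same genotype in both. No wild-type library was analysed here, and the labels used here give no age, sex, strain, number of animals or allele.

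ERBB3 and ERBB4 are receptor tyrosine kinases that bind neuregulins, growth factors made largely by neurons. ERBB4 has an active kinase and in the cortex is known as a receptor of GABA-releasing interneurons, where it takes part in their migration and in the excitatory synapses they receive. ERBB3 has a weak kinase of its own and signals through a partner such as ERBB2, and it is known from Schwann cells and oligodendrocytes, the myelinating glia. Neuregulins NRG1 and NRG2 are made as membrane precursors that proteases such as BACE1 and ADAM17 cleave.

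After filtering, 6248 upper-band and 8211 deeper-band nuclei remained, with 52203793 and 54088726 unique molecular identifiers (UMIs, counted RNA molecules) and a median of 7979.5 and 4952 UMIs per nucleus. The libraries shared 16 cell barcodes among the nuclei kept. Nuclei were clustered without ERBB3, ERBB4 or the other ERBB receptors and ligands, so that neither gene entered the clustering. The doublet calls made before it did not leave these genes out. Levels are given as CPM, UMIs of the gene per 1000000 UMIs of the group, with an exact Poisson 95% interval. Ratios between groups are given as log2 with an exact conditional 95% interval, and band differences as the log2 of the deeper over the upper level. Where 2 values stand together without a band, the first is the upper band's and the second the deeper band's. With 1 library per band there was no test, and all intervals cover counting error only. Band cannot be told apart from library or animal. Lengths of the transcripts were not used, so each gene was compared with itself across groups and never with the other gene.

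ERBB4 was highest in inhibitory neuron-like nuclei and lowest in excitatory neuron-like nuclei, with the glial classes between. In the upper band the level was 4408 CPM (4364 to 4453) in 1017 inhibitory nuclei and 36.2 CPM (34.3 to 38.2) in 3170 excitatory nuclei. In the deeper band it was 4213 CPM (4162 to 4264) in 781 inhibitory nuclei and 37.6 CPM (35.7 to 39.6) in 3469 excitatory nuclei. The inhibitory level was thus 122-fold (log2 6.93, 6.85 to 7.01) and 112-fold (6.81, 6.73 to 6.88) above the excitatory level. An inhibitory nucleus held 36.9 and 33.7 ERBB4 UMIs on average, and an excitatory nucleus 0.424 and 0.418.

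Below the inhibitory nuclei, the order was the same in both bands. Oligodendrocyte-like nuclei had 1598 CPM (848 nuclei) and 1488 CPM (2068 nuclei). Oligodendrocyte precursor-like nuclei had 1442 CPM (126 nuclei) and 1376 CPM (194 nuclei). Precursor-like and oligodendrocyte-like nuclei were close neighbours: the precursor level relative to the oligodendrocyte level was -0.15 (-0.28 to -0.02) and -0.11 (-0.23 to 0.00) in log2. Astrocyte-like nuclei followed with 888 CPM (387 nuclei) and 854 CPM (806 nuclei), 1.80-fold and 1.74-fold below oligodendrocyte-like nuclei. Vascular-like nuclei had 666 CPM (269 nuclei) and 506 CPM (157 nuclei), but 5 upper-band nuclei and 1 deeper-band nucleus with at least 10 ERBB4 UMIs held 55.0% and 64.2% of these UMIs. Those few nuclei carried 3.8 and 13 UMIs of GAD1 and GAD2, which encode the GABA-synthesizing enzymes, per nucleus, and the other vascular-like nuclei had 323 and 190 CPM.

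**Figure D1:**
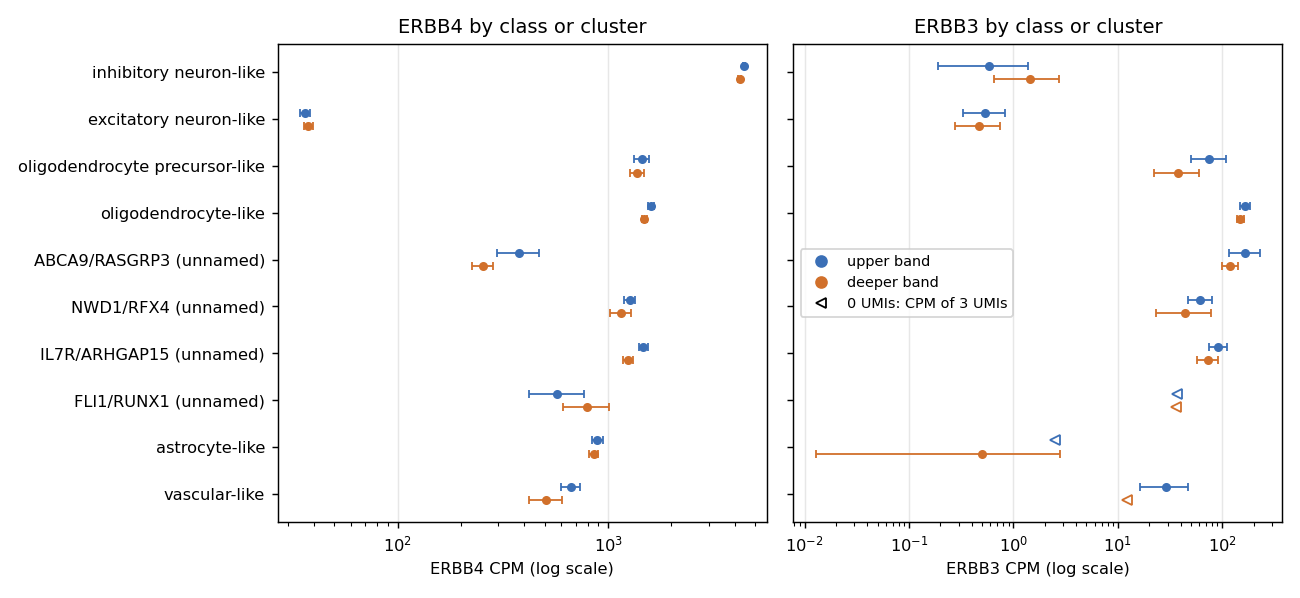
ERBB4 (left) and ERBB3 (right) in CPM on a log axis for each class and for 4 clusters left unnamed, with the upper band in blue and the deeper band in orange. Bars are exact Poisson 95% intervals, and open triangles mark the CPM that 3 UMIs would give where none was counted. ERBB4 sits at 4408 and 4213 CPM in inhibitory nuclei and at 36.2 and 37.6 CPM in excitatory nuclei, and ERBB3 lies above 100 CPM only in oligodendrocyte-like nuclei and the ABCA9/RASGRP3 cluster.

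Free RNA from broken cells was not removed, so the levels in glia were set beside GAD2 within the same nuclei. Inhibitory nuclei held 6.01 and 6.09 ERBB4 UMIs per GAD2 UMI, and excitatory nuclei held 3.93 and 4.53. Oligodendrocyte-like nuclei held 46.0 and 52.1, precursor-like nuclei 44.8 and 46.8, and astrocyte-like nuclei 32.3 and 28.8. The ratio in these 3 glial classes was several times that in inhibitory nuclei, while that of vascular-like nuclei, 6.96 and 5.12, lay near it. These ratios carry no interval, and the part of free RNA in any of these levels was not tested. In excitatory nuclei an ERBB4 UMI was found in 29.7% (28.1 to 31.3, exact binomial interval) and 26.2% (24.7 to 27.7) of nuclei, at a median depth of 10750.5 and 10408 UMIs. When each nucleus was thinned to 1500 UMIs, these shares became 4.85% and 4.71%, against 75.1% and 77.2% in inhibitory nuclei (83.7% and 84.1% before thinning).

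Within the excitatory class, 12 clusters had 21.6 to 50.6 CPM of ERBB4 in the upper band and 28.2 to 171 CPM in the deeper band. The highest deeper-band value belonged to the IQGAP2/LGR5 cluster, in which 4 of 166 nuclei held 86.2% of the ERBB4 UMIs and had 14 GAD1 and GAD2 UMIs each on average. Without those nuclei the cluster had 25.1 CPM. Leaving out every excitatory nucleus with at least 10 ERBB4 UMIs (3 upper-band and 6 deeper-band nuclei) gave 33.7 and 29.4 CPM for the whole class.

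The inhibitory class was divided into 21 subclusters, each called by its leading genes. Of these, 13 were MGE-like and 8 CGE-like, after the medial and caudal ganglionic eminences in which cortical interneurons are born. Subtype names rested on marker lists. SST, a peptide of one interneuron subtype, was at 1093 and 2713 CPM in SST-like nuclei, against 129 and 181 CPM in PVALB-like nuclei. PVALB itself was not analysed here, and the PVALB-like name rests on genes such as BTBD11, at 1341 and 1624 CPM. SST also reached 201 and 137 CPM in astrocyte-like nuclei, a class that should lack it.

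PVALB-like nuclei had the highest ERBB4 level of the interneuron subtypes and SST-like nuclei the lowest. The PVALB-like level was 7002 CPM (6912 to 7094, 317 nuclei) and 6507 CPM (6405 to 6610, 226 nuclei). VIP-like nuclei, of the subtype that makes vasoactive intestinal peptide, had 4882 CPM (207 nuclei) and 4603 CPM (209 nuclei). LAMP5/RELN-like nuclei had 4641 CPM (125 nuclei) and 4095 CPM (88 nuclei). VIP-like and LAMP5/RELN-like nuclei were close neighbours, 1.05-fold (log2 0.07, 0.02 to 0.13) and 1.12-fold (0.17, 0.10 to 0.24) apart. The names were close too: NWD2/MCTP2, a VIP-like subcluster of 45 and 68 nuclei, had 5 VIP-list markers raised against 4 of the LAMP5/RELN list. SST-like nuclei had 947 CPM (904 to 992, 267 nuclei) and 506 CPM (471 to 543, 203 nuclei). The PVALB-like level was 7.39-fold (log2 2.89, 2.82 to 2.96) and 12.9-fold (3.68, 3.58 to 3.79) above the SST-like level.

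The difference was also one of how many nuclei carried the transcript. After thinning to 1500 UMIs, an ERBB4 UMI was found in 99.7% and 100% of PVALB-like nuclei, 97.6% and 99.0% of VIP-like nuclei and 99.2% and 97.7% of LAMP5/RELN-like nuclei. In SST-like nuclei it was found in 36.0% and 24.5% (57.7% and 48.8% before thinning). The median thinned count was 10 and 9 UMIs in PVALB-like nuclei, 7 and 6 in VIP-like nuclei, and 0 in SST-like nuclei of both bands. At full depth, 45 upper-band and 24 deeper-band SST-like nuclei had at least 10 ERBB4 UMIs, 16.9% and 11.8% of the subtype, and these held 79.6% and 68.9% of its ERBB4 UMIs.

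**Figure D2:**
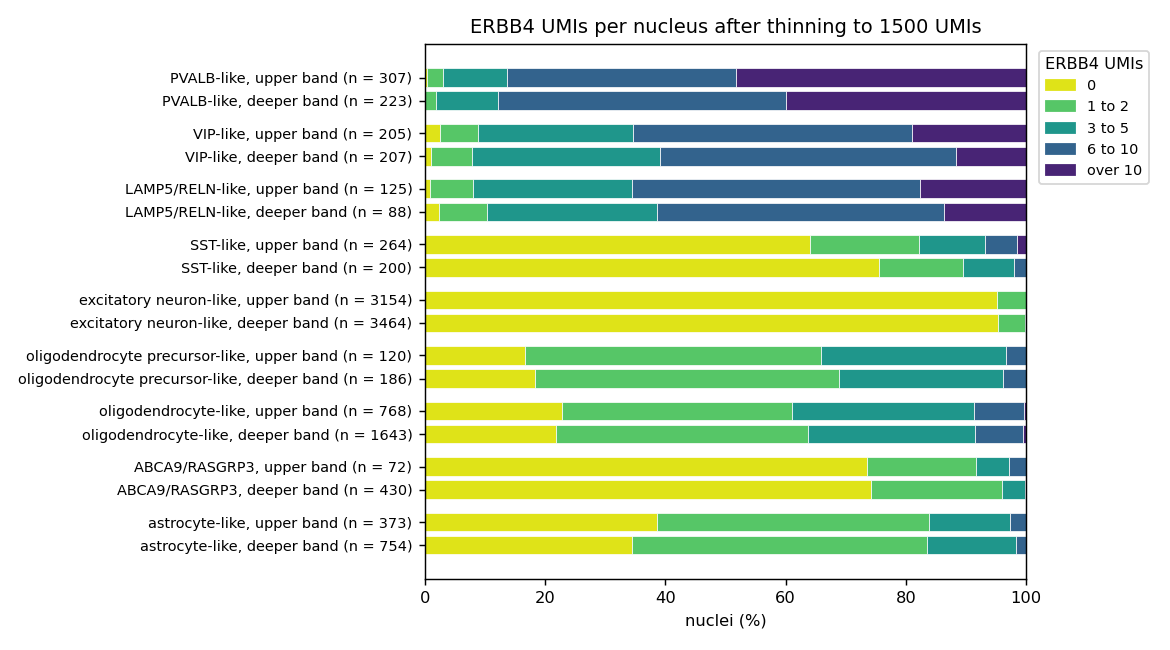
Shares of nuclei (percent) by the number of ERBB4 UMIs after each nucleus was thinned to 1500 UMIs, for interneuron subtypes, excitatory nuclei, oligodendrocyte-lineage nuclei and astrocyte-like nuclei of each band (n beside each bar). Nuclei without an ERBB4 UMI make up 0.326% of upper-band PVALB-like nuclei, 64.0% of upper-band SST-like nuclei and 95.1% of upper-band excitatory nuclei.

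Grouping by birthplace did not show this contrast. MGE-like nuclei, which hold both the PVALB-like and the SST-like subtypes, had 4247 and 4111 CPM, and CGE-like nuclei had 4783 and 4437 CPM. The log2 ratio of MGE-like over CGE-like nuclei was -0.17 (-0.20 to -0.14) and -0.11 (-0.15 to -0.07), and after thinning to 1500 UMIs it was -0.44 and -0.26.

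Among single subclusters, the 13 with a subtype name other than SST-like ranged from 3375 to 7522 CPM of ERBB4 in upper-band nuclei and from 3234 to 7027 CPM in deeper-band nuclei. The highest was OSTN/DOCK8 (PVALB-like), with 7522 and 7027 CPM. UNC5B/EYA1, an MGE-like subcluster, was led by the chandelier-cell marker UNC5B but had 7 PVALB-list markers raised against 3 of the chandelier list. It was left without a subtype name and had 5066 and 5795 CPM of ERBB4. All 6 SST-like subclusters lay below these values in both bands. DSC3/RXFP2 had 2984 and 1472 CPM, STK32B/CNKSR3 had 1141 and 1451 CPM, and CHODL/CDH1 had 740 and 1073 CPM. CBLN4/GLI3 had 660 and 390 CPM, ETV1/PCSK6 had 115 and 147 CPM, and GLI2/SLC26A5 had 107 and 46.8 CPM.

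ERBB4 thus varied over more than an order of magnitude within the SST-like subtype. TAC1/TMEM132C, an MGE-like subcluster with no subtype name, had 80.8 CPM (85 nuclei) and 13.7 CPM (21 nuclei, 2 UMIs). SST itself was at 766 and 2328 CPM in that subcluster, beside 750 and 2100 CPM in DSC3/RXFP2, the SST-like subcluster with the most ERBB4. In TAC1/TMEM132C, ETV1/PCSK6 and GLI2/SLC26A5 the ERBB4 level thus came nearer to that of excitatory nuclei than to that of any VIP-like or PVALB-like subcluster.

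**Figure D3:**
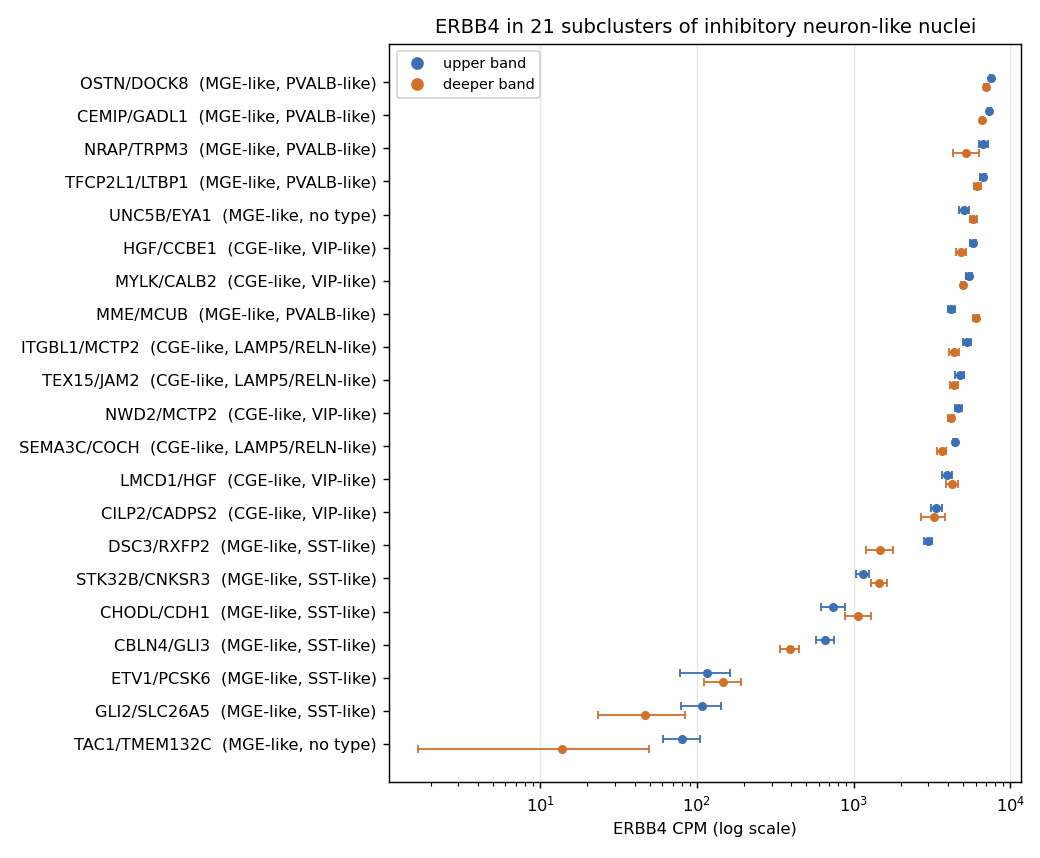
ERBB4 in CPM on a log axis for 21 inhibitory subclusters, ordered by level, with the upper band in blue, the deeper band in orange and exact Poisson 95% intervals as bars. The 6 SST-like subclusters and TAC1/TMEM132C lie at the low end, from 2984 CPM down to 13.7 CPM, below the 13 subclusters of the other subtypes.

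Comparing bands, ERBB4 over all nuclei was at 902 and 709 CPM, a log2 difference of -0.35 (-0.37 to -0.33). Inhibitory nuclei made up 16.3% (15.4 to 17.2) and 9.51% (8.89 to 10.2) of all nuclei. Within inhibitory nuclei the difference was -0.07 (-0.09 to -0.04), and thinning to 1500 UMIs brought it to 0.00 (-0.06 to 0.06). In that class 7% of 11891 genes differed at least 1.5-fold between bands in either direction, and 38.1% of genes lay below ERBB4.

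In the named subtypes other than SST-like, the band differences of ERBB4 were small. They were -0.11 in PVALB-like (-0.14 to -0.08), -0.08 in VIP-like (-0.13 to -0.04) and -0.18 in LAMP5/RELN-like nuclei (-0.25 to -0.11), none of them past 1.5-fold. Of all genes compared in these subtypes, 8.18%, 10.2% and 9.51% were past it. MGE-like nuclei differed by -0.05 (-0.07 to -0.02), which became 0.06 (-0.01 to 0.13) after thinning, and CGE-like nuclei by -0.11 (-0.15 to -0.07), where 7.5% and 8.76% of genes were past 1.5-fold. Excitatory nuclei differed by 0.06 (-0.05 to 0.16), and by -0.20 (-0.32 to -0.08) without the few nuclei of at least 10 ERBB4 UMIs. Those nuclei were picked by their own ERBB4 count, which the latter interval does not take into account. Without doublet removal the excitatory difference was -0.47. In this class 11.7% of 15570 genes were past 1.5-fold.

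Among the named subtypes SST-like nuclei had the largest band difference, with ERBB4 1.87-fold lower in the deeper band (-0.90, -1.03 to -0.78). Whether it differs from that of the other subtypes was not tested. In this subtype 4.74% of 7594 genes were at least 1.5-fold lower in the deeper band, 10.2% differed that much in either direction, and 1.13% lay below ERBB4. SST was higher there in the deeper band, at 1093 and 2713 CPM. The make-up of the subtype differed too: DSC3/RXFP2, the subcluster richest in ERBB4, held 42 upper-band and 9 deeper-band nuclei. ERBB4 within it also differed between bands (-1.02, -1.33 to -0.73), so leaving it out removes both its share and its own difference. Without it the SST-like levels were 519 and 460 CPM, a difference of -0.18 (-0.33 to -0.03). That interval does not take into account that the subcluster was picked by its ERBB4 level. With the subcluster shares of the upper band in both bands the SST-like difference was -0.42, and with those of the deeper band -0.28.

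The single SST-like subclusters did not differ in one direction. ERBB4 was lower in the deeper band in 3 of 6 and higher in 3, and the interval was clear of 0 in 3 and 2 of them. Some of these directions rested on few nuclei. Without nuclei of at least 10 ERBB4 UMIs, CBLN4/GLI3 had 93.5 and 211 CPM and STK32B/CNKSR3 443 and 254 CPM. ETV1/PCSK6 then had 115 and 106 CPM. These directions were reversed, while those of DSC3/RXFP2, GLI2/SLC26A5 and CHODL/CDH1 stayed. Over all 21 subclusters ERBB4 was lower in the deeper band in 15 (13 with an interval clear of 0) and higher in 6 (4 clear). These subclusters share the same 2 libraries and are not replicates of a band. The share of all genes with such differences was not counted for subclusters, and large UMI counts make the intervals narrow. Of the 13 with another subtype name, 11 were lower (9 clear) and 2 higher (1 clear). That 1 was MME/MCUB, a PVALB-like subcluster with 4199 CPM in 30 upper-band nuclei and 6035 CPM in 32 deeper-band nuclei (0.52, 0.42 to 0.62), named here because it stood alone in that count.

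**Figure D4:**
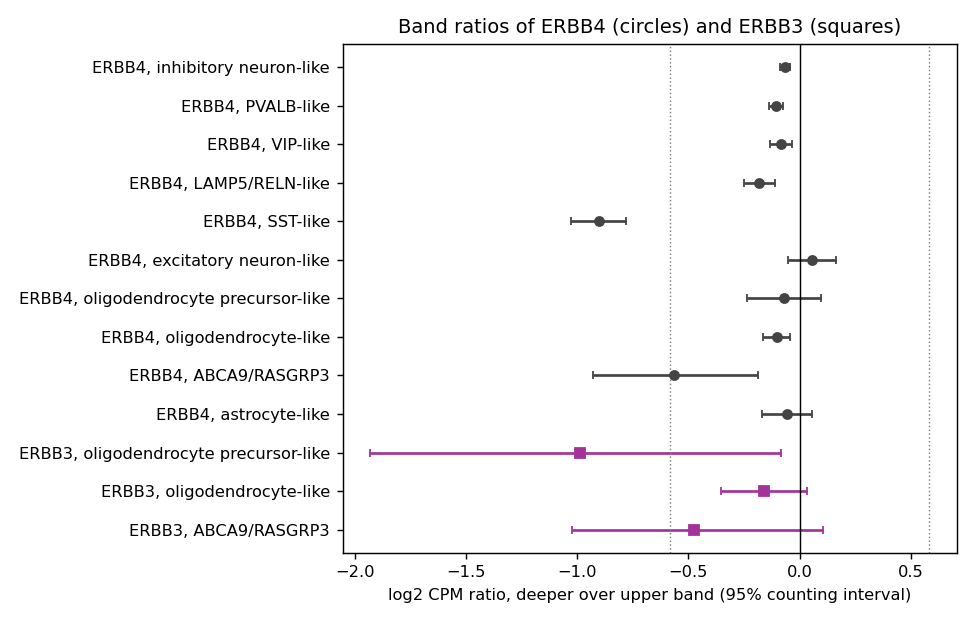
Log2 ratio of CPM, deeper over upper band, for ERBB4 (circles) and ERBB3 (squares), with exact conditional 95% intervals as bars, a solid line at equal levels and dotted lines at 1.5-fold. ERBB4 in SST-like nuclei is at -0.90, and ERBB4 in the other subtypes and in the excitatory, oligodendrocyte, precursor and astrocyte classes lies between -0.18 and 0.06.

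Oligodendrocyte-lineage nuclei carried both receptors. ERBB3 was at 167 CPM in upper-band oligodendrocyte-like nuclei (150 to 186, 341 UMIs) and 149 CPM in deeper-band ones (138 to 162, 617 UMIs). Precursor-like nuclei, which are led by PDGFRA and MEGF11, had 75.1 CPM (49.9 to 108, 28 UMIs) and 37.8 CPM (22.4 to 59.7, 18 UMIs). The oligodendrocyte level of ERBB3 was 2.22-fold (log2 1.15, 0.60 to 1.76) and 3.95-fold (1.98, 1.31 to 2.75) above the precursor level. ERBB4, by contrast, was within 1.11-fold between the same classes.

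ERBB3 was far lower in neurons and astrocyte-like nuclei. Excitatory nuclei had 0.538 and 0.468 CPM (20 and 18 UMIs) and inhibitory nuclei 0.587 and 1.44 CPM (5 and 9 UMIs). PVALB-like nuclei had no ERBB3 UMI in either band, where 3 UMIs would be 0.921 and 1.26 CPM, and astrocyte-like nuclei had 0 and 1 UMI. Vascular-like nuclei had 16 UMIs (28.9 CPM) in the upper band and none in the deeper band. After thinning, an ERBB3 UMI was found in 21.9% and 18.6% of oligodendrocyte-like nuclei (32.4% and 25.3% before) and in 0% and 0.0866% of excitatory nuclei (0.568% and 0.519% before). The median depth of oligodendrocyte-like nuclei was 2205 and 1859.5 UMIs, so the absence of a UMI from one nucleus says little about that nucleus.

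One unnamed cluster, led by ABCA9 and RASGRP3, separated the receptors. It held 76 upper-band and 456 deeper-band nuclei, with 11 oligodendrocyte markers raised but only 2 markers of newly formed oligodendrocytes. ENPP6, an enzyme gene known from newly forming oligodendrocytes, was at 290 and 283 CPM, against 19.6 and 24.9 CPM in oligodendrocyte-like nuclei. The cluster stayed unnamed because its leading genes held more markers of newly formed oligodendrocytes than of oligodendrocytes. ENPP6 was the only marker of either list among those leading genes.

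ERBB3 in the ABCA9/RASGRP3 cluster was at 166 CPM (116 to 231, 35 UMIs) and 120 CPM (100 to 142, 132 UMIs). Oligodendrocyte-like nuclei exceeded it in log2 by 0.01 (-0.50 to 0.55) and 0.32 (0.05 to 0.60). ERBB4 in the same cluster was 375 CPM (297 to 468) and 254 CPM (225 to 285). Oligodendrocyte-like nuclei exceeded that 4.26-fold (2.09, 1.77 to 2.43) and 5.87-fold (2.55, 2.38 to 2.73), the latter log2 ratio being 1.81 without doublet removal. After thinning, an ERBB4 UMI was found in 26.4% and 25.8% of the cluster's nuclei, against 77.2% and 78.3% of oligodendrocyte-like and 83.3% and 81.7% of precursor-like nuclei. The level of ERBB3 in the cluster was thus near that of oligodendrocyte-like nuclei while ERBB4 was several-fold lower, in both bands.

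Nuclei with and without an ERBB3 UMI did not differ in ERBB4 detection beyond counting error. Thinned oligodendrocyte-like nuclei held 0.254 and 0.208 ERBB3 UMIs on average, so a nucleus without one may still carry the transcript. The split therefore cannot tell whether the receptors vary together. After thinning, 76.2% of 168 upper-band oligodendrocyte-like nuclei with an ERBB3 UMI had an ERBB4 UMI (69.0 to 82.4), as did 77.5% of the 600 without one (73.9 to 80.8). In the deeper band the shares were 78.8% of 306 nuclei (73.7 to 83.2) and 78.2% of 1337 nuclei (75.8 to 80.3). In the ABCA9/RASGRP3 cluster they were 29.2% of 65 and 25.2% of 365 deeper-band nuclei.

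Oligodendrocyte-like nuclei formed 2 clusters. CASR/OPALIN had 1553 and 1541 CPM of ERBB4 and 168 and 158 CPM of ERBB3. OPALIN/TF had 1871 and 1351 CPM of ERBB4 and 160 and 128 CPM of ERBB3. ERBB4 thus differed between bands in OPALIN/TF (-0.47, -0.61 to -0.33) and not beyond counting error in CASR/OPALIN (-0.01, -0.08 to 0.06). OPALIN/TF nuclei were shallower, with a median of 1623 and 1509 UMIs against 2381 and 2092. After thinning to 1500 UMIs the mean ERBB4 count in OPALIN/TF was 2.72 UMIs in 114 nuclei and 2.19 in 389, with 69 and 371 shallower nuclei left out, and that in CASR/OPALIN was 2.26 in both bands.

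Between bands, ERBB3 over all nuclei was at 11.6 and 16.3 CPM, a log2 difference of 0.49 (0.34 to 0.65). Oligodendrocyte-like nuclei were 13.6% and 25.2% of all nuclei. Within them ERBB3 differed by -0.16 (-0.35 to 0.04) and ERBB4 by -0.10 (-0.16 to -0.04), where 6.74% of 8753 genes were past 1.5-fold in either direction. In the ABCA9/RASGRP3 cluster ERBB3 differed by -0.48 (-1.02 to 0.11) and ERBB4 by -0.57 (-0.93 to -0.19), and 15.6% of 4461 genes were past 1.5-fold. Without removal of doublets (pairs of nuclei under 1 barcode) the ERBB4 difference in that cluster turned to 0.47 (0.04 to 0.92).

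Precursor-like nuclei differed by -0.99 in ERBB3 (-1.93 to -0.09), but this rests on 46 UMIs over both bands, under the 50 set for a comparison. ERBB4 in precursor-like nuclei differed by -0.07 (-0.24 to 0.10), where 8.65% of 3387 genes were past 1.5-fold. In astrocyte-like nuclei ERBB4 differed by -0.06 (-0.17 to 0.06), with 8.7% of 7484 genes past that fold. In vascular-like nuclei it differed by -0.40 (-0.70 to -0.10), with 32.3% of 3934 genes past it.

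Nuclei in 2 further unnamed clusters showed markers of 2 classes. NWD1/RFX4, with oligodendrocyte and astrocyte markers, had 1266 and 1150 CPM of ERBB4 and 61.8 and 44.5 CPM of ERBB3. IL7R/ARHGAP15, with microglia and oligodendrocyte markers, had 1466 and 1249 CPM of ERBB4 and 91.8 and 73.0 CPM of ERBB3. In FLI1/RUNX1, whose best markers were those of microglia at a shallow depth of 1268 and 1135 UMIs, ERBB4 was at 574 and 790 CPM, 1.0 UMI per nucleus in each band, and no ERBB3 UMI was counted in 47 and 66 nuclei.

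The partner receptors were distributed differently. EGFR was highest in precursor-like nuclei, with 469 and 477 CPM, followed by astrocyte-like nuclei with 191 and 136 CPM and vascular-like nuclei with 161 and 148 CPM. Oligodendrocyte-like nuclei had 2.45 and 1.94 CPM of EGFR. ERBB2, the usual partner of ERBB3, gave 63 UMIs over all nuclei of both libraries. Astrocyte-like nuclei had 8.33 and 8.05 CPM of ERBB2 (10 and 16 UMIs), and oligodendrocyte-like nuclei held 0 and 3 UMIs.

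Among the neuregulins, NRG1 was highest in excitatory nuclei, and its level in precursor-like nuclei was above that in inhibitory nuclei. NRG1 was at 287 and 210 CPM in excitatory nuclei (-0.45, -0.49 to -0.41), 106 and 93.2 CPM in inhibitory nuclei, and 206 and 149 CPM in precursor-like nuclei. Within the excitatory class it ranged from 45.6 and 55.6 CPM in the SLC17A6/CPED1 cluster to 566 and 631 CPM in SYT2/HNF4G. It was lower in the deeper band in 7 of 12 excitatory clusters and higher in 5, and the clusters took different shares of the class in the bands. FOXP2/SYT6, for example, had 488 and 424 CPM in 544 and 119 nuclei, and PLCXD2/SYT10 had 132 and 126 CPM in 196 and 984 nuclei. NRG2 was at 236 and 234 CPM in excitatory nuclei, 299 and 308 CPM in inhibitory nuclei and 11.3 and 6.06 CPM in oligodendrocyte-like nuclei. NRG3 and NRG4 were not analysed here.

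Each EGF-like ligand was likewise compared only with itself across groups. BTC (betacellulin), which also binds ERBB4, was at 42.7 and 28.8 CPM in excitatory nuclei and at 32.2 and 79.8 CPM in precursor-like nuclei (12 and 38 UMIs). HBEGF lay between 4.11 and 14.7 CPM in all classes and the ABCA9/RASGRP3 cluster. TGFA was highest in that cluster, with 33.3 and 20.8 CPM (7 and 23 UMIs), and at 16.1 and 13.1 CPM in oligodendrocyte-like nuclei. AREG (amphiregulin) was at 9.29 and 3.82 CPM in excitatory nuclei, a difference of -1.28, and among the 6 ligands with at least 50 UMIs there it alone was past 1.5-fold, beside 11.7% of all genes. Most AREG UMIs (269 of 345 and 95 of 147) lay in the FOXP2/SYT6 cluster, where the level was higher in the deeper band, at 48.1 CPM (42.5 to 54.2) and 78.8 CPM (63.7 to 96.3). EGF stayed at or below 16.2 CPM in these groups, and 2 more ligands, EPGN and EREG, gave 33 and 2 UMIs in all.

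**Figure D5:**
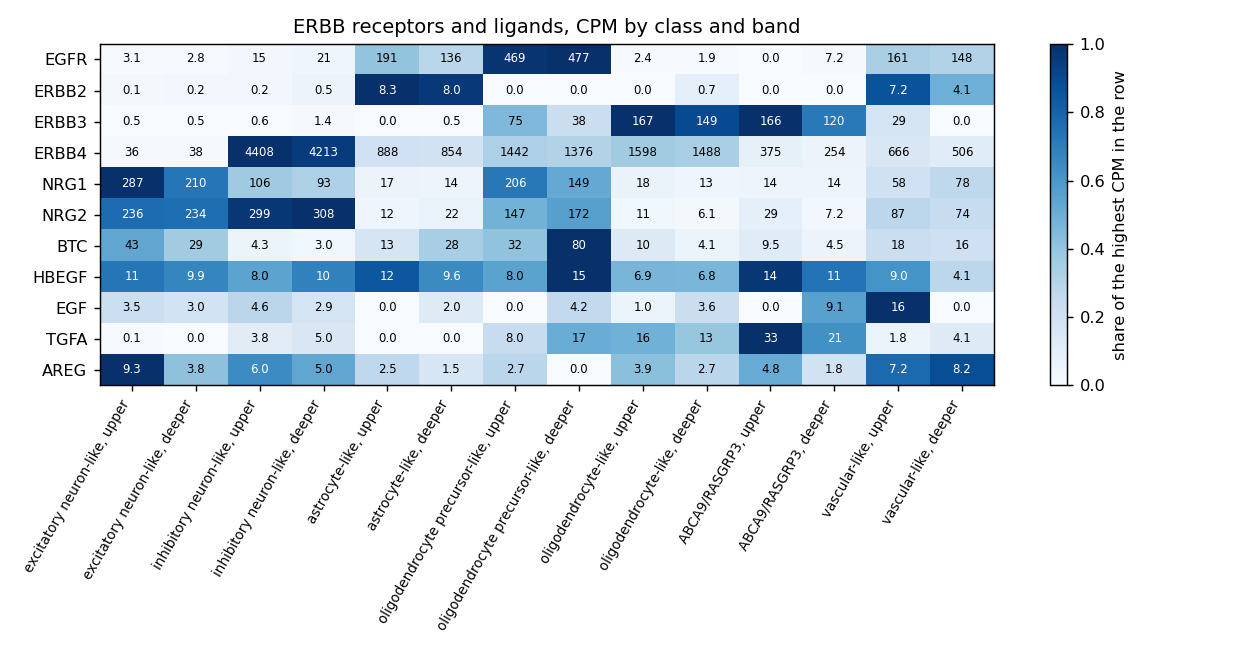
CPM of ERBB receptors (EGFR, ERBB2, ERBB3, ERBB4) and ligands in 6 classes and the ABCA9/RASGRP3 cluster of each band, with the value in each cell and the colour scaled to the highest value of its row. Rows are not comparable with each other because transcript length was not used. ERBB4 peaks in inhibitory nuclei (4408 CPM), ERBB3 in oligodendrocyte-like nuclei (167 CPM), NRG1 in excitatory nuclei (287 CPM) and EGFR in precursor-like nuclei (477 CPM).

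Other genes of the pathway were compared between bands in the classes where the receptors were highest. Of all genes, 7% in inhibitory and 6.74% in oligodendrocyte-like nuclei were past 1.5-fold, so lists of these sizes would hold few or none at that rate. Of proteases that cleave ligands or ERBB4, 9 of 10 listed were in the table, and 7 had at least 50 UMIs in inhibitory and 7 in oligodendrocyte-like nuclei. None was past 1.5-fold in either class, and the list medians were 0.02 and 0.08 in log2, against -0.003 and -0.002 for all genes. Of 13 measured genes for scaffolds and receptor turnover (such as ERBIN, a protein that binds ERBB2, and LRIG1, which lowers ERBB receptors), 13 and 12 had enough UMIs and none was past 1.5-fold, with medians of -0.05 and -0.09. Of 26 measured genes of downstream signalling, from adaptors to the kinases of the PI3K and MAPK cascades, 21 and 20 had enough UMIs and none was past 1.5-fold, with medians of 0.01 and -0.03. Among ligands in inhibitory nuclei, EGF was the 1 of 7 past it, beside 7% of all genes, at 4.58 and 2.88 CPM with an interval that held 0 (-1.56 to 0.17).

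The genes whose levels followed each receptor most closely were ranked among 8685 genes by Pearson's r of log2(CPM + 1). Points were the 46 combinations of cluster and band with at least 50 nuclei, which share 2 libraries and their depth. For ERBB4 these included KIAA1328 (r = 0.946), DUSP10 (0.902), ZNF608 (0.862) and KLHL13 (0.842). For ERBB3 they were CDH19 (0.965), PLLP (0.957), RSPRY1 (0.953), ZNF638 (0.951) and UGT8 (0.945). PLLP encodes plasmolipin, a myelin protein, and UGT8 an enzyme of myelin lipid synthesis that was among the oligodendrocyte markers. Over 26 combinations of inhibitory subcluster and band with at least 30 nuclei, ERBB4 was followed by DAB1 (0.941), an adaptor of reelin signalling, GABRB2 (0.902), a GABA receptor subunit, APBA1 (0.902), IGSF11 (0.890) and EIF2AK4 (0.885). These are descriptions of shared pattern, with no test.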

How the data were processed

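The deposited files are gene-by-nucleus matrices of UMI counts, 1 per band, with whole-number counts per the file headers and values, software version 3.1.0 in the headers. Cell Ranger 6.2.1 and 2.1.1 stand in the submitters' processing notes without a role. The genome build, annotation, treatment of intronic reads and barcode filter are not given in the sources used here. The labels number the libraries as replicates but give them different bands, so each band is 1 library.

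Of 7151 and 9694 barcodes (upper, deeper), 7091 and 9608 had at least 500 genes. Scrublet in scanpy 1.11.5 (Python 3.11.15) marked 843 (11.9%) and 1397 (14.5%) as doublets, above the 5.67% and 7.69% expected for the load, and these were removed. DCX, the targeted gene, was at 78.7 and 77.1 CPM, and such counts do not show whether the protein is made. Nuclei were clustered on 2000 variable genes and 30 principal components with the Leiden method (igraph 0.11.9) at a resolution of 1, leaving out 13 ERBB genes. This gave 28 clusters, of which 23 were named. The scoring rule for names was set after clusters were seen. Free RNA was not removed.

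The receptors, gene lists and markers were chosen with earlier results of these data known. Apart from the receptors, other ERBB receptors and ligands with at least 50 UMIs were named. From the other lists only genes past 1.5-fold between bands in inhibitory or oligodendrocyte-like nuclei were to be named, and none was. The 5 genes most like each receptor were to be named too, of which 1 for ERBB4 is not reported here. Shares carry exact Clopper-Pearson intervals. UMI intervals treat molecules as independent, while nuclei vary by more than counting. Interval coverage was checked only on simulated sums with Poisson counting error, which leave out variation between nuclei. That check therefore cannot show how well the intervals cover these data. Alternatives were doublet removal, gene minimum, cluster resolution, scaling, thinning to 1500 UMIs and clustering with the ERBB genes kept. Sequences and coordinates were not used here.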

Additional observations from a re-analysis of the deposited data

How the results depend on the processing

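No paired analysis was possible because each band is 1 library, and with 1 library a group no replicate was left out. Of 103 alternative values for 13 ratios that answer a comparison, 69 stayed within the counting interval of the value reported and 34 moved outside it. Of these, 10 changed sign, all in the band difference of ERBB4: 6 in excitatory nuclei, 3 in MGE-like nuclei and 1 in inhibitory nuclei. The ERBB3 ratios of oligodendrocyte-like and precursor-like nuclei all stayed within theirs. In oligodendrocyte-like nuclei the ERBB3 band difference ran from -0.29 to -0.16 over the alternatives. Its interval was clear of 0 in some, such as thinning (-0.54 to -0.03), and held 0 in others, such as a resolution of 2 (-0.37 to 0.02). For 14 other ratios, such as those of SST-like nuclei and the ABCA9/RASGRP3 cluster, 85 of 109 alternative values stayed within the interval and 24 moved outside it. The cause of the movements below was not tested.

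The log2 ratio of inhibitory over excitatory ERBB4 ran from 6.49 to 7.23 over all alternatives. It was 6.49 (upper) without doublet removal, 7.09 and 7.23 with 2 times as many nuclei removed as doublets, 7.12 (deeper) at a resolution of 2, 7.11 (deeper) at a gene minimum of 1000, 6.77 (upper) as a mean over nuclei, 6.80 (upper) after thinning, and 7.03 and 7.16 without excitatory nuclei of at least 10 ERBB4 UMIs. MGE-like over CGE-like kept its sign. Without doublet removal it was -0.13 and -0.0326, and the deeper-band interval held 0 (-0.0693 to 0.0042). In the deeper band it was -0.0426 (-0.0817 to -0.0034) with double removal and -0.0591 at the higher gene minimum. As a mean over nuclei it was -0.41 and -0.26, and after thinning -0.44 and -0.26.

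The band difference of ERBB4 in inhibitory nuclei was -0.18 without doublet removal, -0.036 with double removal, -0.0296 as a mean over nuclei, 0.0005 after thinning, and -0.12 and -0.10 at the subcluster shares of the upper and deeper band. In MGE-like nuclei it was -0.0148 without doublet removal, 0.0034 with double removal, 0.0157 as a mean over nuclei and 0.0585 after thinning, and in CGE-like nuclei -0.16 at the higher gene minimum. In excitatory nuclei it was -0.47 without doublet removal, -0.18 with double removal, -0.19 at a resolution of 2, -0.20 at the higher gene minimum, -0.12 as a mean over nuclei and -0.20 without nuclei of at least 10 ERBB4 UMIs. In oligodendrocyte-like nuclei it was -0.27 without doublet removal, -0.30 with double removal and -0.26 at the higher gene minimum. In the ABCA9/RASGRP3 cluster it ran from -0.84 to 0.47 over the alternatives. It was 0.47 there without doublet removal and -0.18 (-0.57 to 0.23) at the higher gene minimum. That cluster counted as oligodendrocyte-like without doublet removal, with double removal and at the higher gene minimum, so the oligodendrocyte class then included it. The log2 ratio of ERBB4 in oligodendrocyte-like nuclei over it ran from 1.93 to 2.55 (upper) and 1.81 to 2.76 (deeper) over the alternatives run.

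Thinning to 1500 UMIs gave ERBB4 detection of 75.1% and 77.2% in inhibitory nuclei and 4.85% and 4.71% in excitatory nuclei, and ERBB3 detection of 21.9% and 18.6% in oligodendrocyte-like nuclei. At the gene minimum of 1000 the doublet calls made at 500 genes were kept, since a new run of the caller marked 0 of 8901 deeper-band nuclei. The alternatives on subcluster shares, on the DSC3/RXFP2 subcluster and on nuclei of at least 10 ERBB4 UMIs were chosen after seeing the data. Median-of-ratios scaling moved no band difference by more than 0.03 in log2. Few UMIs stand behind ERBB3 in precursor-like nuclei (46) and ERBB2 in all nuclei (63), and both are imprecise.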
